A study of Mus musculus with 8 samples.

Results

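The genes described here encode inducible brakes on mitogen-activated protein (MAP) kinase signalling: 5 dual-specificity phosphatases (Dusp1, Dusp4, Dusp5, Dusp6 and Dusp10), 3 Sprouty genes (Spry1, Spry2 and Spry4) and 2 Sprouty-related Spred genes (Spred1 and Spred2). They were chosen by name, with earlier results of these data known. Each of the 10 was found as a row of the deposited table of 24594 genes by its Entrez Gene ID. Their levels were compared between luminal progenitors (LP), sorted as c-Kit high luminal cells, and mature luminal cells, sorted as c-Kit low, in 4 LP and 4 mature RNA-seq libraries. Both fractions came from the mammary gland of wild type, untreated, virgin C57BL/6J mice and were sorted on EpCAM, CD49f, cKit and CD14. The labels give no age, and the study's methods state an adult age range for its mice. The labels do not say whether the replicates of a fraction are separate animals, so the p-values below measure the spread between these libraries.

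Growth factors bind receptor tyrosine kinases at the cell surface, which load Ras with GTP, and Ras starts the relay from Raf to MEK to the kinase ERK. The p38 and JNK kinases form parallel relays that respond mainly to stress and inflammatory signals. Active ERK switches on genes for its own inhibitors. The dual-specificity phosphatases remove phosphate from the activating threonine and tyrosine of a MAP kinase, and the Sprouty and Spred proteins act near the membrane, between the receptor and Raf. In the mammary gland, signals through ErbB and FGF receptors drive growth and branching of the ducts, and luminal cells include progenitors as well as cells that carry the hormone receptors.

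Of the 10 genes, 4 were higher in mature cells and 0 were higher in LP at an adjusted p under 0.05 in edgeR's quasi-likelihood test with Benjamini-Hochberg adjustment over the 12816 genes tested. The 4 were Dusp1, Dusp4, Dusp10 and Spry1, which were between 2.98 and 12.2 times as high in mature cells. Across all tested genes, 13.8% were called higher in mature cells and 10.9% higher in LP, against 4 and 0 of the 10 members. The members' calls lay in the direction that was slightly the more frequent in the whole table. The members were not tested as a set. At an unadjusted p under 0.05 the numbers were 5 higher in mature cells and 0 in LP, and the DESeq2 Wald test gave 4 and 0. For 3 members (Dusp1, Dusp4 and Spry1) every mature library lay above every LP library, as for 15.5% of tested genes, and for 0 members every LP library lay above every mature library, as for 14.0% of tested genes. The other 7 members overlapped between the fractions. The median log2 fold change of the 10 members, LP minus mature, was -0.595, against 0.00 over all tested genes. Dusp6, Spry2 and Spry4 had positive log2 fold changes that did not pass the test, and Spred1 and Spred2 lay close to 0.

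The libraries held between 5510863 and 7089597 counts on genes in LP and between 4410049 and 7791593 in mature cells. Of 6 LP markers, 5 were higher in LP, with Aldh1a3 at an adjusted p of 0.0512 in edgeR's quasi-likelihood test, and 6 of 6 markers of mature cells were higher in mature cells. Kit and Cd14, among the LP markers called, encode proteins named as sort markers, so they were not taken as a separate check of the fractions. The paper describes the split into LP and mature cells by c-Kit, and brings in CD14 as a further marker for later flow cytometry. Among mature libraries, replicate 3 had the highest sum of the 6 LP markers, 1900 CPM (counts scaled by edgeR's TMM method to a common library size). Mature replicates 1, 2 and 4 had 396, 654 and 1190 CPM. Of these markers, Aldh1a3 was highest in mature replicate 4, at 378 CPM against 354 in mature replicate 3. The heat-shock gene Hspa1a stood at 8250 CPM in mature replicate 3 against 584, 346 and 1310 in mature replicates 1, 2 and 4. The 4 members called higher in mature cells were also called without that library. Markers of basal, immune, endothelial and fibroblast cells stood at no more than 33.2 CPM in any library, except for the fibroblast gene Dcn. Of those tested, 0 were called in either direction by edgeR. At an unadjusted p under 0.05 there were 1 basal marker higher in LP and 2 basal and 1 fibroblast marker higher in mature cells, and DESeq2 called 1 basal marker higher in mature cells. Without mature replicate 3, edgeR called Oxtr higher in LP (adjusted p = 0.00522) and Dcn higher in mature cells (adjusted p = 0.0295). Of the keratins that mark all luminal cells, Krt8, Krt18 and Krt19 were higher in mature cells, and Epcam was not called (log2 fold change 0.26, adjusted p = 0.332 in edgeR). The summed CPM of 8 basal markers was 18.2 to 49.5 in LP and 15.6 to 77.2 in mature libraries. Of this, Krt17 held 14.2 to 33.2 CPM in LP and 6.83 to 28.3 CPM in mature libraries. The transcription factor gene Trp63 was at most at 5.42 CPM. The sum of 6 immune markers reached at most 9.15 in LP and 6.50 in mature libraries, with Cd3e and C1qa at 0 in every library, and that of 4 endothelial markers reached 8.48 and 8.08, with Kdr at 0 in every library. The 6 fibroblast markers summed to 7.35 to 41.7 in LP and 27.0 to 179 in mature libraries. Dcn alone held 1.53 to 24.7 CPM in LP and 14.1 to 154 CPM in mature libraries.

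**Figure D1:**
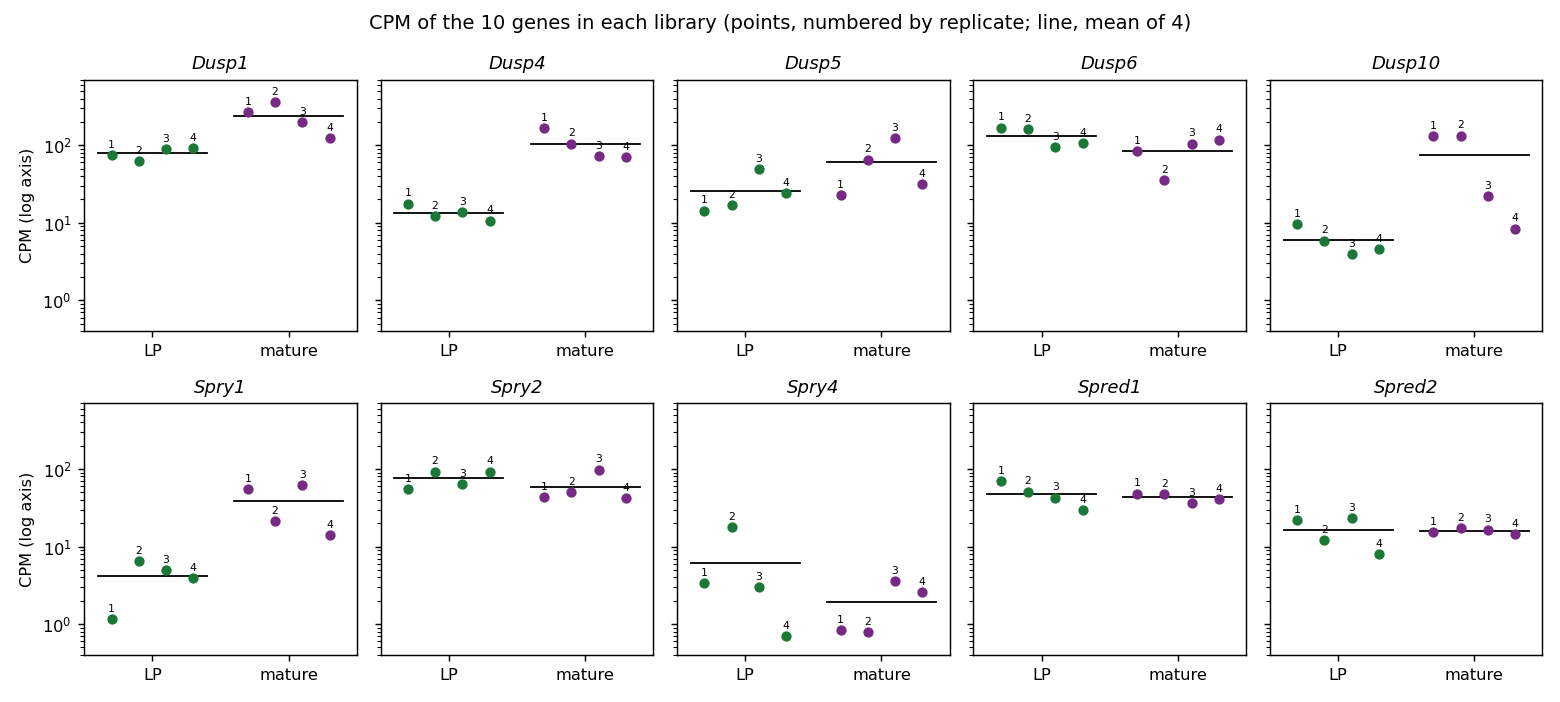
CPM of each of the 10 genes on a log axis, with 1 point per library numbered by replicate, LP in green and mature in purple, and a line at the mean of 4 libraries. The points of Dusp1, Dusp4 and Spry1 do not overlap between the fractions, mature replicates 1 and 2 of Dusp10 stand far above the rest, and the Spred genes lie at the same height on both sides.

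Among the phosphatases, Dusp4 showed the smallest adjusted p. It encodes a nuclear phosphatase of ERK and JNK. It had 17.7, 12.1, 13.8 and 10.7 CPM in LP replicates 1 to 4 and 168, 105, 72.0 and 70.7 CPM in mature replicates 1 to 4. The lowest mature library lay well above the highest LP library. The means were 13.6 ± 3.04 CPM in LP and 104 ± 45.7 CPM in mature cells (SD, n = 4 each), a 7.67-fold difference with a log2 fold change, LP minus mature, of -2.94 (SE 0.315, edgeR's quasi-likelihood test, adjusted p = 0.000326). The two-sided exact permutation test on log2 CPM gave p = 0.0286 for Dusp4, Dusp1 and Spry1, the smallest value that 4 against 4 libraries allow. Dusp4 lies on chromosome 8 of mm10 (34807610 to 34819894), and its exons overlap no other annotated gene.

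Dusp1 encodes the nuclear phosphatase MKP-1, an immediate-early gene product that acts on p38 and JNK as well as ERK. Its CPM was 74.8, 61.8, 90.0 and 91.4 in LP and 265, 357, 201 and 124 in mature libraries. All 4 mature libraries stood above all 4 LP libraries, with mature replicate 4 the nearest to LP. Means of 79.5 ± 14.0 CPM in LP and 237 ± 98.7 CPM in mature cells (SD, n = 4 each) differed 2.98-fold, with a log2 fold change of -1.57 (SE 0.291, edgeR's quasi-likelihood test, adjusted p = 0.00355). Exons of Dusp1 overlap those of Ergic1 on the opposite strand. The library kit does not keep the strand, so reads of the overlap cannot be told apart by strand. How such reads were counted is not given. The same limit holds for the opposite-strand overlaps of Dusp5 and Spry1 below.

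Dusp10 encodes a phosphatase of p38 and JNK with little activity on ERK. Its LP libraries held 9.58, 5.89, 3.98 and 4.58 CPM. In mature cells it had 132 and 133 CPM in replicates 1 and 2 but 21.9 and 8.44 CPM in replicates 3 and 4. Mature replicate 4 lay below LP replicate 1, so the fractions overlapped, and the mature libraries varied with a coefficient of variation of 92.0%. The log2 fold change of -3.61 (SE 0.792) was the most negative of the 10 members and passed edgeR's quasi-likelihood test at an adjusted p of 0.00814, while the exact permutation test gave p = 0.0571. Without replicate 2 of both fractions the adjusted p was 0.0628 in the same edgeR test, with a log2 fold change of -3.12. The fibroblast marker Dcn was also at 132 and 154 CPM in mature replicates 1 and 2 and at 14.1 and 20.6 CPM in replicates 3 and 4. The other fibroblast markers (Col1a1, Col1a2, Col3a1, Lum and Pdgfra) did not share that pattern, at no more than 16.3 CPM in mature libraries. The part of fibroblast RNA in the Dusp10 values was not tested. In a bulk library a difference in the share of cells that express a gene and a difference in RNA per cell cannot be told apart.

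Dusp5, a nuclear phosphatase that is selective for ERK, did not pass the test. It had 14.4, 16.8, 49.0 and 24.0 CPM in LP and 22.6, 65.1, 124 and 31.5 CPM in mature libraries. Replicate 3 was the highest library of both fractions, and the ranges overlapped. Its log2 fold change was -1.23 (SE 0.543, edgeR's quasi-likelihood test, adjusted p = 0.126), and -0.57 without mature replicate 3 (adjusted p = 0.418). Dusp5 was past the threshold in 1 of 20 alternative fits, which took the replicate number as a block. An antisense gene, AC137853.2, overlaps its exons.

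Dusp6, the cytoplasmic phosphatase of ERK that is widely used as a readout of ERK activity, had the reverse order of means. Its LP libraries held 169, 162, 94.3 and 106 CPM and its mature libraries 83.7, 35.7, 105 and 118 CPM. LP replicates 1 and 2 lay above every other library and mature replicate 2 below, while the remaining libraries of both fractions were mixed. The log2 fold change of 0.63 (SE 0.334) did not pass edgeR's quasi-likelihood test (adjusted p = 0.198), nor did it under any of 20 alternative fits.

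**Figure D2:**
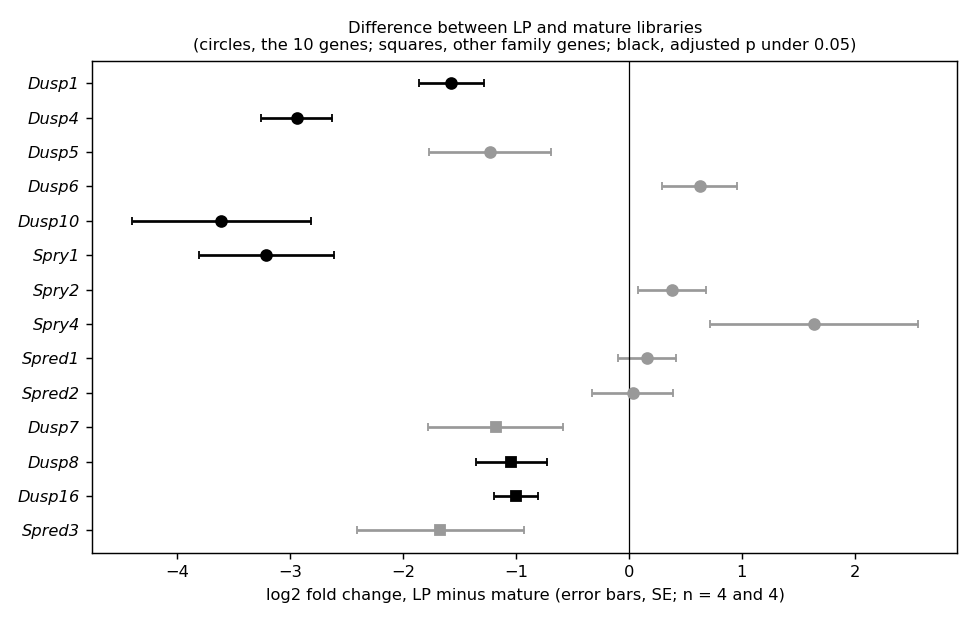
Log2 fold change between 4 LP and 4 mature libraries, positive where LP was higher, with its standard error, for the 10 genes (circles) and the 4 further family genes that could be tested (squares). Black marks an adjusted p under 0.05, and all 6 black points (Dusp1, Dusp4, Dusp10, Spry1, Dusp8 and Dusp16) lie on the mature side.

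Spry1 was the only Sprouty or Spred member past the threshold. Sprouty proteins are phosphorylated on a tyrosine after receptor activation and then hold back Ras signalling. Spry1 had 1.16, 6.47, 4.98 and 3.88 CPM in LP and 55.3, 21.5, 61.8 and 13.9 CPM in mature libraries. In LP this rested on 8 to 45 counts a library, and in mature cells on 82 to 428, and the fractions did not overlap. Its means were 4.12 ± 2.24 and 38.1 ± 23.9 CPM (SD, n = 4 each), a 9.24-fold difference with a log2 fold change of -3.21 (SE 0.595, edgeR's quasi-likelihood test, adjusted p = 0.00360). Its exons overlap those of Gm42922, a transcript with no established function on the opposite strand.

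Spry2, the close relative of Spry1, had 55.5, 92.6, 63.7 and 92.4 CPM in LP and 42.9, 50.7, 97.9 and 41.7 CPM in mature libraries. Mature replicate 3 held the highest value of all 8 libraries, and the other 3 mature libraries lay below every LP library. With all libraries the log2 fold change was 0.38 (SE 0.298, edgeR's quasi-likelihood test, adjusted p = 0.386). Without mature replicate 3, the log2 fold change was 0.79 with an adjusted p of 0.0289 in the same test. This made Spry2 the 1 member called higher in LP in that fit. Among mature libraries, replicate 3 had the highest summed LP markers and the highest Hspa1a. The part of those marker and heat-shock levels in the Spry2 value was not tested.

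Spry4 was low in both fractions, with 3.34, 17.8, 2.99 and 0.694 CPM in LP and 0.844, 0.788, 3.61 and 2.56 CPM in mature libraries, or 3 to 124 counts. Only LP replicate 2 stood clear of the rest. Its log2 fold change of 1.64 (SE 0.923, edgeR's quasi-likelihood test, adjusted p = 0.223) was 0.25 without LP replicate 2 and 0.01 without replicate 2 of both fractions.

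Spred proteins recruit neurofibromin, the GTPase-activating protein that switches Ras off, to the membrane. Spred1 had 69.6, 51.0, 42.7 and 29.5 CPM in LP and 48.1, 47.8, 35.9 and 40.5 CPM in mature libraries. Spred2 had 21.8, 12.1, 23.4 and 8.05 CPM in LP and 15.3, 17.3, 16.5 and 14.6 CPM in mature libraries. For both genes the mature values fell within the range of the LP values. The log2 fold changes were 0.16 (SE 0.255) for Spred1 and 0.03 (SE 0.358) for Spred2, with adjusted p of 0.684 and 0.958 in edgeR's quasi-likelihood test. The sign of each changed when 1 or more libraries were left out.

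Levels were set against each other between genes only as CPM per kilobase of exon. On that scale the order of means in LP was Dusp6, Spry2, Dusp1, Dusp5, Spred1, Dusp4, Spred2, Dusp10, Spry1 and Spry4, from 42.4 ± 12.2 CPM per kb for Dusp6 and 36.5 ± 9.26 CPM per kb for Spry2 down to 1.42 ± 0.772 CPM per kb for Spry1 and 1.31 ± 1.65 CPM per kb for Spry4 (SD, n = 4). Every pair of neighbours in this order overlapped between libraries. In mature cells the order was Dusp1, Dusp4, Spry2, Dusp6, Dusp5, Dusp10, Spry1, Spred1, Spred2 and Spry4. With the longest transcript as length, Dusp6 (30.6 CPM per kb) came before Spry2 (28 CPM per kb) and Dusp10 (26.4) before Dusp5 (24.6), and the order in LP was the same. Dusp1 led with 71.6 ± 29.9 CPM per kb and Dusp4, sixth in LP, followed with 38 ± 16.7 CPM per kb (SD, n = 4). Only Spred1 and Spred2, and Spred2 and Spry4, were neighbours whose libraries did not overlap.

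Within the 5 phosphatases the makeup differed between the fractions. Dusp6 held 58.7, 61.8, 36.1 and 44.1% of their summed CPM per kb in the LP libraries and 12.1, 5.01, 18.9 and 32.4% in the mature libraries. Dusp4 held 7.02, 5.28, 6.03 and 5.1% in LP and 27.8, 16.9, 14.8 and 22.2% in mature cells. Neither gene's shares overlapped between the fractions, with those of Dusp6 higher in LP and those of Dusp4 higher in mature cells. The CPM of Dusp6 itself did overlap and did not pass the test, and its share depends also on the level of the other phosphatases. The ratio of Dusp4 to Dusp6, per kb, was between 0.0855 and 0.167 in LP and between 0.684 and 3.37 in mature libraries. The summed level of the 5 phosphatases was 92.1, 83.5, 83.4 and 76.4 CPM per kb in LP and 221, 228, 178 and 116 CPM per kb in mature libraries. These shares, ratios and sums are a description with no test, and the choice of ratios followed a look at the values.

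The summed level of the 5 Sprouty and Spred genes overlapped, at 42.7, 60.5, 44.2 and 51.9 CPM per kb in LP and 50.2, 42.7, 77.8 and 34.4 CPM per kb in mature libraries. Spry2 held the largest share in every library, 62.3 to 85.4% in LP and 41.0 to 60.3% in mature cells. Spry1 held 0.936 to 3.87% in LP and 13.9 to 37.9% in mature cells. The ratio of Spry1 to Spry2, per kb, was 0.015, 0.0502, 0.0561 and 0.0302 in LP and 0.922, 0.305, 0.454 and 0.238 in mature libraries, so no LP library reached the lowest mature ratio. Spred1 over Spred2, by contrast, was 1.24 to 2.88 in LP and 1.49 to 2.14 in mature libraries.

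**Figure D3:**
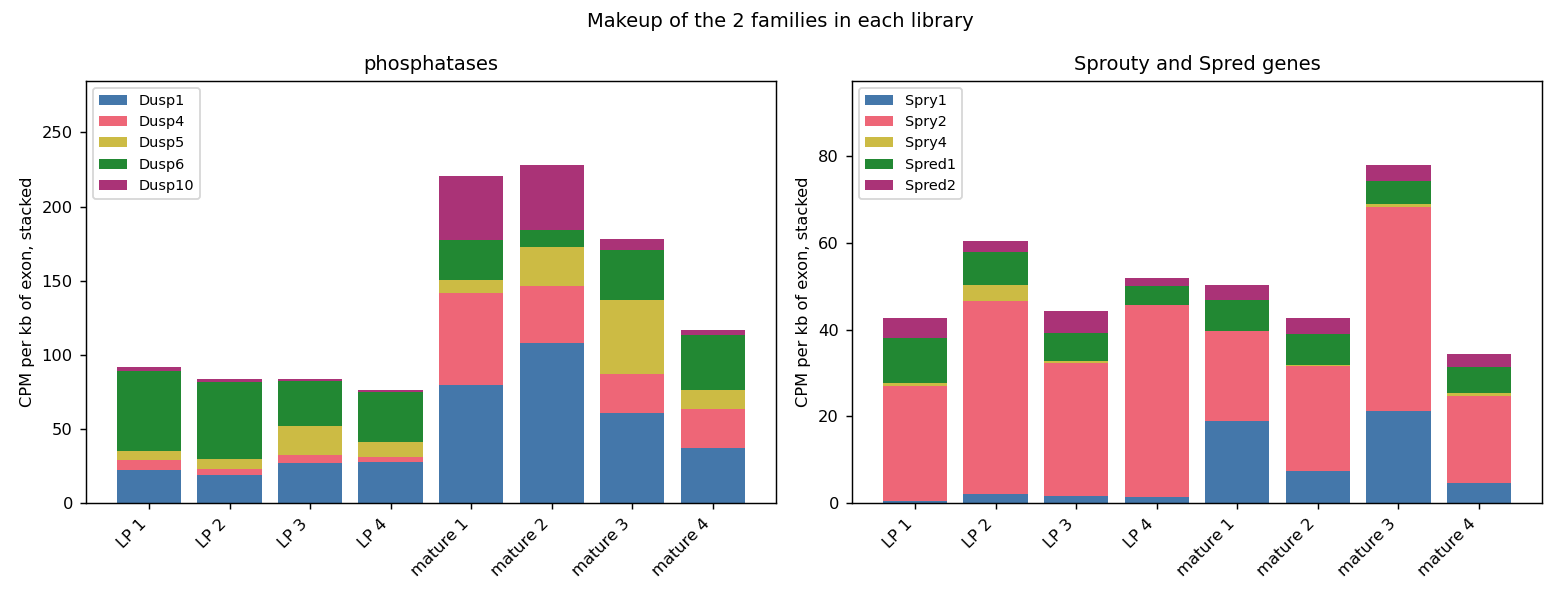
Stacked CPM per kb of exon in each library for the 5 phosphatases (left) and the 5 Sprouty and Spred genes (right), with 1 colour per gene. Dusp6 (green, left) forms the largest block in each LP library, at 36.1 to 61.8% of the sum (with the longest transcript as length, Dusp1 exceeds it in LP replicates 3 and 4), and Spry1 (blue, right) is at most 3.87% of the sum in LP libraries and at least 13.9% in mature libraries.

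Promoter sequence was examined for motifs of transcription factors that lie downstream of MAP kinases or cAMP. RefSeq promoters (GRCm38.p6) were found for 8 of the 10 members, all but Dusp4 and Spry4, and the 250 bases before the gene start were searched on both strands, with 32851 promoters as background. The cAMP response element TGACGTCA, which binds CREB, was in 1 member promoter (Dusp1) and in 1.55% of all promoters. Its shorter form TGACGTC, which every full element contains, was in those of Dusp1 and Spred2 and in 2.78% of all. The CArG box, the site of the serum response factor SRF, was in that of Dusp5 and in 1.47% of all. The AP-1 site TGANTCA (6.75% of all) and the ETS site CCGGAAGT (2.88% of all) were in none of the 8 windows. A match is a description of the letters in the window. The Dusp1 stretch, on the minus strand at chr17:26508593-26508683, is shown because Dusp1 was higher in mature cells and holds the shorter and the full element, both in capitals. The Dusp5 stretch, on the plus strand at chr19:53529043-53529097, is shown for its 2 adjacent CArG boxes, in capitals as 1 run, and Dusp5 itself was not called.
Dusp1: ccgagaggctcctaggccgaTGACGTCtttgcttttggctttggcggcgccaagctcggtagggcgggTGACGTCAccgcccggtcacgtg
Dusp5: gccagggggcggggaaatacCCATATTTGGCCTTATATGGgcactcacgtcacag

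The full element of Dusp1 spans bases -143 to -136 from the gene start and the shorter one bases -191 to -185. In Dusp5 the boxes span bases -82 to -73 and -72 to -63.

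Of 7 further genes of the 2 families, 4 could be tested and 2 were higher in mature cells, as were 13.8% of all tested genes. Dusp16, a JNK and p38 phosphatase, had 118, 75.9, 136 and 112 CPM in LP and 256, 218, 213 and 196 CPM in mature libraries, with no overlap, and a log2 fold change of -1.0 (SE 0.191, edgeR's quasi-likelihood test, adjusted p = 0.00417). Dusp8, which acts on the same kinases, had 39.2, 43.1, 78.5 and 69.6 CPM in LP and 100, 78.3, 191 and 103 CPM in mature libraries, where the lowest mature value lay just under the highest LP value. Its log2 fold change was -1.04 (SE 0.312, edgeR's quasi-likelihood test, adjusted p = 0.0330), and -0.68 without mature replicate 3, its highest library, with an adjusted p of 0.0861. Dusp7 had a log2 fold change of -1.18 (SE 0.602, adjusted p = 0.179 in edgeR's quasi-likelihood test) and Spred3 one of -1.67 (SE 0.740, adjusted p = 0.127) at no more than 4.22 CPM in any library. Dusp2 and Spry3 had 0 counts in every library. Dusp9, not tested, was found in LP replicate 1 (0.581 CPM) and mature replicate 3 (4.48 CPM).

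The next list held 12 further inhibitors of receptor tyrosine kinases and Ras, of which 3 were higher in mature cells and 0 in LP at an adjusted p under 0.05 in edgeR, and DESeq2 also gave 3 and 0. The list had a median log2 fold change of -0.17 against 0.00 over all tested genes. Of all tested genes, edgeR called 13.8% higher in mature cells and 10.9% higher in LP. Il17rd (Sef), which blocks FGF signalling, had 0.416 to 1.49 CPM in LP and 3.31 to 7.45 CPM in mature libraries, for a log2 fold change of -2.93 (SE 0.605, edgeR's quasi-likelihood test, adjusted p = 0.00611). It rested on 3 to 9 counts in LP libraries and was past the threshold in 17 of the 19 alternative fits that tested it. Cblb, a ubiquitin ligase that marks receptors for degradation, had 9.02 to 21.1 CPM in LP and 31.0 to 105 CPM in mature libraries, for a log2 fold change of -1.76 (SE 0.415, edgeR's quasi-likelihood test, adjusted p = 0.0114). Neither gene overlapped between the fractions. Errfi1 (Mig6), an inhibitor of the EGF receptor, had a log2 fold change of -0.68 (SE 0.212, edgeR's quasi-likelihood test, adjusted p = 0.0394) and overlapped, and it was past the threshold in 10 of 20 alternative fits. Without mature replicate 3, Lrig3 was also called, higher in LP (log2 fold change 4.50 against 1.71 with all libraries, adjusted p = 0.0148 in the same test), at no more than 4.98 CPM in any library.

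Upstream of the members, 3 of 10 tested growth factor receptors were called higher in LP by edgeR and 1 higher in the mature fraction. The shares over all tested genes were 10.9% and 13.8%. Igf1r, the IGF1 receptor, had 118, 129, 147 and 77.8 CPM in LP and 12.5, 11, 25.6 and 17.9 CPM in mature libraries (log2 fold change 2.80, SE 0.299, edgeR's quasi-likelihood test, adjusted p = 0.000326). Erbb4, a neuregulin receptor, had 27.2 to 85.7 CPM in LP and 2.11 to 20.6 CPM in mature libraries, with a log2 fold change of 2.27 (SE 0.624, adjusted p = 0.0228 in the same test), and it was past the threshold in 14 of 20 alternative fits. Met, the receptor of hepatocyte growth factor, had a log2 fold change of 1.23 (SE 0.201, adjusted p = 0.00202 in that test). Fgfr2, an FGF receptor needed for ductal branching, had the opposite direction, with 910 to 980 CPM in LP and 1170 to 2180 CPM in mature libraries and had a log2 fold change of -0.89 (SE 0.205, edgeR's quasi-likelihood test, adjusted p = 0.00997). Leaving out mature replicate 3 added Egfr to those higher in LP (log2 fold change 1.64 against 0.88 with all libraries, adjusted p = 0.00392 in that test).

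Most genes of the relay itself did not pass the test, as was so for 9655 of the 12816 genes tested. Among 16 genes from adaptors to ERK, 14 did not, and the median log2 fold change was 0.05. Braf, a Raf kinase, was higher in mature cells, with a log2 fold change of -0.83 (SE 0.194, edgeR's quasi-likelihood test, adjusted p = 0.0111), and was past the threshold in 18 of 20 alternative fits. Ksr1, a scaffold that joins Raf, MEK and ERK, was higher in LP, at 6.97 to 13.2 CPM against 0.141 to 2.17 CPM, with a log2 fold change of 3.35 (SE 0.746, edgeR's quasi-likelihood test, adjusted p = 0.00867). Of 9 tested genes of the p38 and JNK relays, 0 passed the threshold in edgeR or in DESeq2, and at an unadjusted p under 0.05 there was 1 gene on the LP side and 2 on the mature side. Without mature replicate 3, edgeR called Map2k7 higher in LP (log2 fold change 1.01, adjusted p = 0.0486) and Mapk9 higher in mature cells (-0.66, adjusted p = 0.0269).

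Among 12 transcripts that ERK is known to induce, calls went both ways, 2 toward LP and 2 toward mature cells, with a median log2 fold change of 0.50. Over all tested genes the shares were 10.9% toward LP and 13.8% toward mature cells. Etv5, an ETS factor induced by FGF signalling, had 24.8, 27.5, 11.6 and 8.05 CPM in LP and 2.95, 0.788, 1.44 and 0.452 CPM in mature libraries, with no overlap and a log2 fold change of 3.62 (SE 0.642, edgeR's quasi-likelihood test, adjusted p = 0.00291). Phlda1 had 1190 to 1360 CPM in LP and 240, 216, 904 and 418 CPM in mature libraries, for a log2 fold change of 1.51 (SE 0.401, edgeR's quasi-likelihood test, adjusted p = 0.0197). Fos, a component of the AP-1 dimer, was higher in mature cells with a log2 fold change of -1.20 (SE 0.24, edgeR's quasi-likelihood test, adjusted p = 0.00525), and so was Myc at -0.68 (SE 0.209, adjusted p = 0.0357). Of 20 alternative fits, Phlda1 was past the threshold in 17 and Myc in 10. Leaving out mature replicate 3 changed this list to 4 higher in LP, with Egr1 (log2 fold change 2.15, adjusted p = 0.000240 in edgeR's quasi-likelihood test) and Epha4 (1.61, adjusted p = 0.0187) added, and 1 higher in mature cells, with Myc lost (adjusted p = 0.0912). Of 10 nuclear and kinase substrates of ERK, Ets2 was higher in mature cells with a log2 fold change of -1.33 (SE 0.202, edgeR's quasi-likelihood test, adjusted p = 0.00136), Ets1 was higher there with -1.12 (SE 0.296, adjusted p = 0.0189), and 8 did not pass. Ets1 was past the threshold in 15 of 20 alternative fits.

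**Figure D4:**
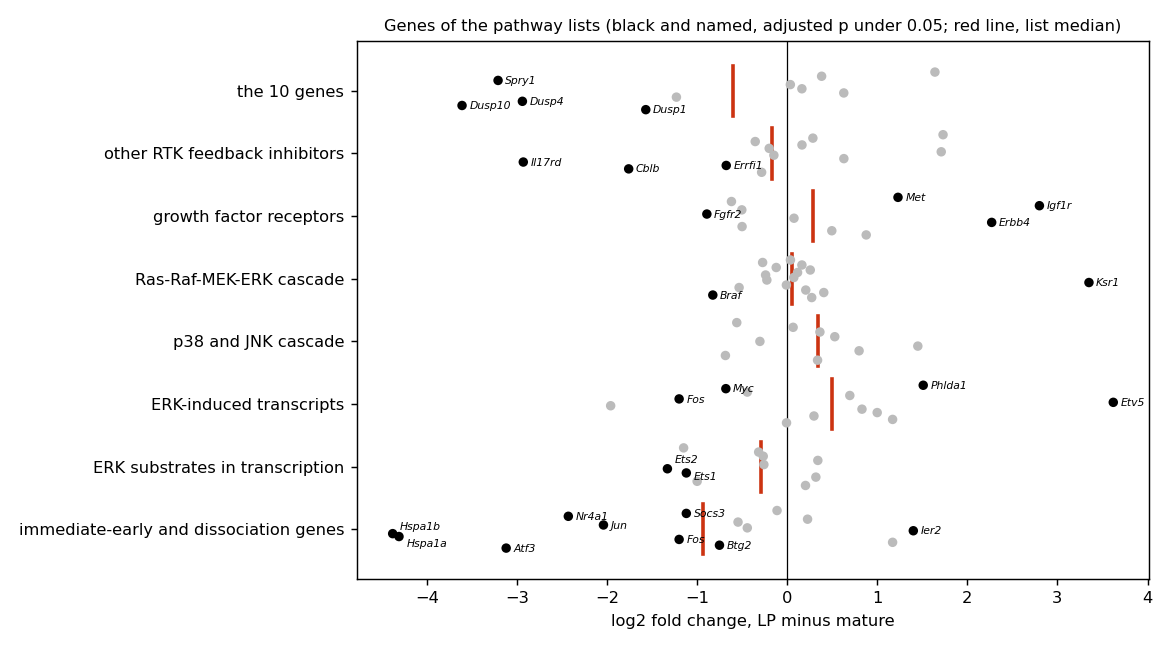
Log2 fold change between 4 LP and 4 mature libraries for every tested gene of 8 lists, positive where LP was higher, with the list's median as a red line and genes at an adjusted p under 0.05 in black with their names. Called genes of the first 2 lists lie on the mature side, those of the receptor and ERK-induced lists lie on both sides, and the p38 and JNK list has none.

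Dusp1 is itself an immediate-early gene, and tissue dissociation and sorting can induce such genes. Among 14 tested genes of a list of immediate-early and dissociation genes, 8 were higher in mature cells and 1 in LP. The shares over all tested genes were 13.8% and 10.9%. Jun had 231, 174, 347 and 230 CPM in LP and 1330, 1080, 1140 and 502 CPM in mature libraries, with a log2 fold change of -2.04 (SE 0.313, edgeR's quasi-likelihood test, adjusted p = 0.00140). Atf3, at -3.12 (SE 0.430, adjusted p = 0.000859 in that test), Nr4a1, Btg2, Socs3, Fos and the heat-shock genes Hspa1a and Hspa1b were the others, of which Btg2 and Socs3 were past the threshold in 9 of 20 alternative fits each. Hspa1a and Hspa1b had log2 fold changes of -4.31 (SE 1.01, edgeR's quasi-likelihood test, adjusted p = 0.0108) and -4.38 (SE 1.01, adjusted p = 0.0100), and of -2.48 and -2.58 without mature replicate 3. Ier2 went the other way, with 386, 418, 331 and 459 CPM in LP and 111, 133, 192 and 166 CPM in mature libraries (log2 fold change 1.40, SE 0.200, edgeR's quasi-likelihood test, adjusted p = 0.00102). The summed CPM of the list was 1790 to 2390 in LP and 3790 to 15700 in mature libraries, the highest from mature replicate 3, in which Hspa1a alone held 8250 CPM. Without mature replicate 3 the list again had 8 genes higher in mature cells, with Btg2 lost (adjusted p = 0.0696 in edgeR) and Junb added (adjusted p = 0.0430), and Egr1 joined Ier2 in LP. The list shared 3 genes (Fos, Egr1 and Ier3) with the ERK-induced list. The 8 genes higher in mature cells shared that direction with Dusp1, Dusp4, Dusp10 and Spry1, and their part in those differences was not tested.

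The genes most like 2 members over the 8 libraries were found by the root mean square difference of mean-centred log2 CPM. For Dusp4, the member with the smallest adjusted p on the mature side, they were Hk2 at 0.155, H4c9 at 0.205, Wdfy1 at 0.294, Lrrk1 at 0.298 and Mir8114 at 0.299. Hk2 encodes the hexokinase that opens glycolysis. For Dusp6, the member with the smallest adjusted p on the LP side, they were Gm16062 at 0.163, 2210016L21Rik at 0.176, Mrps11 at 0.201, Rhno1 at 0.211 and Zfp428 at 0.215. Since these genes were picked for their likeness over the same libraries, their fold changes were not tested further.

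**Figure D5:**
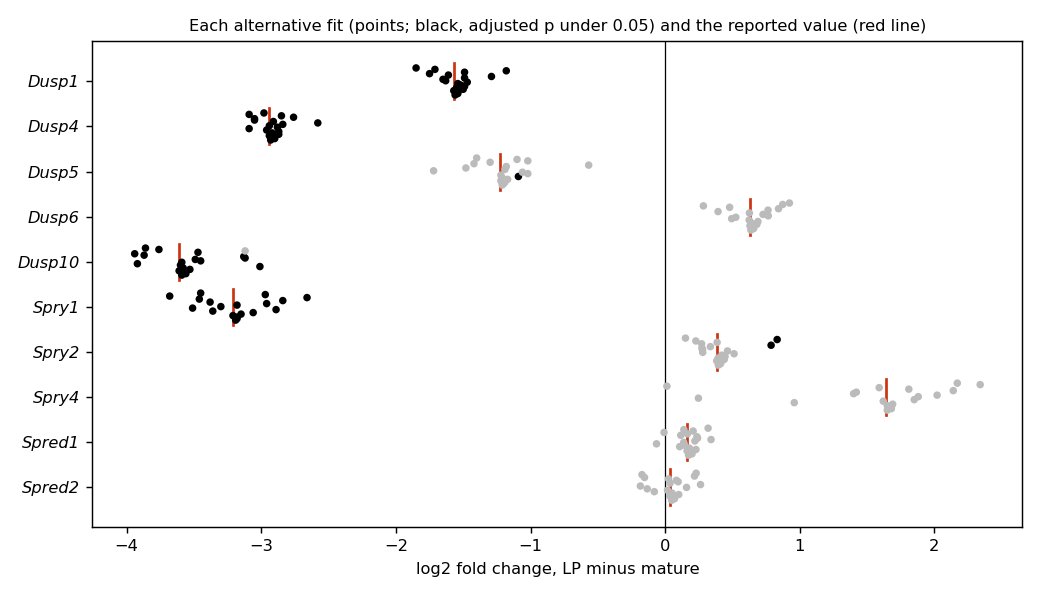
Log2 fold change of each of the 10 genes, LP minus mature, under each alternative fit (points, black at an adjusted p under 0.05) with the reported value as a red line. Dusp1, Dusp4 and Spry1 are black in every fit that tested them and Dusp10 in 19 of 20, while the points of Spred1 and Spred2 fall on both sides of 0.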

How the data were processed

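RNA of the sorted cells was amplified by the authors from a sub-nanogram amount with a low-input cDNA kit and made into libraries with a kit that does not keep the strand. Single-end reads were trimmed with cutadapt and aligned to mm10 with Bowtie2. The submitters' processing notes name cutadapt 4.2 and Bowtie2 2.3.5.1, and the study's methods name another version of Bowtie2. Bowtie2 does not split reads across introns. Reads that span exon junctions may therefore be lost, which can lower genes with many short exons. The authors deposited raw counts per gene as whole numbers for 24594 Entrez Gene IDs, of which 24570 were matched to a symbol in RefSeq (GRCm38.p6). The program that counted the reads and its treatment of shared reads are not given in the sources used here.

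Counts were normalized by TMM and filtered by filterByExpr grouped by fraction (12816 genes left) in edgeR 4.0.16 under R 4.3.3. The quasi-likelihood F-test of LP against mature libraries was adjusted by the Benjamini-Hochberg method over every gene tested, at a threshold of 0.05. The SE of a log2 fold change is its size divided by the square root of F. The common biological coefficient of variation was 0.393. CPM per kb used the union of exons in GENCODE M21. Alternatives were RLE and upper-quartile factors, DESeq2 1.42.0, the likelihood ratio test, a filter of at least 10 counts per library or none, the replicate number as a block (replicate block), counts thinned to the shallowest library, fits that each omitted a library or a replicate number, and the longest transcript as length. Chi-square comparison of libraries within a fraction found no library deposited more than once. The methods state 3 biological replicates a condition, and all 8 deposited libraries were used. The relay from Ras to ERK has genes that are not reported here. Numbers in the column names that LP and mature libraries share were not taken as pairs.

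The 10 members and the other gene lists were chosen with earlier results of these data known. Named genes were all members and, where they bear on a result, from each other list the genes past the threshold with the 2 largest changes in each direction and all genes of lists with 6 or fewer, and the 5 genes most like a member. Egr1, Epha4, Egfr, Lrig3, Map2k7, Mapk9, Junb, Met, Errfi1, Jun, Atf3, Nr4a1, Btg2, Socs3, Krt17, Trp63 and Oxtr were named after their values were seen.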

Additional observations from a re-analysis of the deposited data

Results flagged for a closer look

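In each group of 4 libraries, a library was singled out where its gap to the nearest other library exceeded Dixon's 95% limit. All members and list genes with at least 1 CPM in a library of the group were examined. This was the case for 22 of 255 groups, where the limit alone gives about 12.8. The filter let in some groups only through the flagged library, so these numbers cannot be compared. In mature replicate 3 these were Dusp9, Lrig3, Oxtr, Col1a1, Col1a2, Myh11 and Krt5, and in LP replicate 3 Krt5 and Cnn1. Spry2 stood at 97.9 CPM in mature replicate 3 against 41.7 to 50.7 in the other mature libraries, and Spry4 at 17.8 CPM in LP replicate 2 against 0.694 to 3.34 in the other LP libraries.

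Mature replicate 3 was also apart from the other mature libraries for Egr1 (210 CPM against 29.9 to 58.0), Hspa1a (8250 against 346 to 1310), Hspa1b (3780 against 167 to 607), Pecam1 (7.94 against 0.984 to 1.96), Myh11 (3.61 against 0.562 to 0.904), Col1a2 (4.04 against 0.788 to 0.904), Lrig3 (3.03 against 0 to 0.301), Krt5 (2.17 against 0 to 0.263) and, against 0 in each, Dusp9 (4.48), Oxtr (3.18) and Col1a1 (1.44). LP replicate 3 was apart from the other LP libraries for Erbb4 (85.7 CPM against 27.2 to 35.4), Hspa1a (288 against 61.7 to 97.4), Lrig2 (56.9 against 40.2 to 41.7), Mknk1 (5.31 against 9.57 to 10.3), Cnn1 (2.66 against 0 to 0.431) and Krt5 (1.16 against 0 in each). Mapk11 stood at 0.719 CPM in LP replicate 2 against 6.52 to 7.14, Elk3 at 19.8 CPM in mature replicate 1 against 10.2 to 10.7, and Pdgfra at 16.3 CPM in mature replicate 2 against 0.151 to 2.74.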

How the results depend on the processing

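The calls of Dusp1 and Dusp4 were kept under all 20 alternative fits and that of Spry1 under all 19 that tested it, with log2 fold changes of -1.85 to -1.18, -3.09 to -2.58 and -3.68 to -2.66. Spry1 and Spry4 could not be tested with at least 10 counts in every library. Dusp10 was called in 19 of 20 fits (-3.94 to -3.01), the exception being the fit without replicate 2 (adjusted p = 0.0628). Leaving out 1 library or 1 replicate number gave 3 to 4 members higher in mature cells and 0 to 1 higher in LP, the 1 being Spry2 without mature replicate 3 (log2 fold change 0.79) or without replicate 3 (0.83, adjusted p = 0.0375). Spred2 turned to -0.0805 under the replicate block and to -0.133, -0.184, -0.153 and -0.172 without LP replicate 1, LP replicate 3, replicate 1 and replicate 3, and ranged from -0.184 to 0.263 over the fits with libraries left out. Spred1 turned to -0.0642 without LP replicate 1 and to -0.00832 without replicate 1, and ranged from -0.0642 to 0.341 over the same fits. These fits have fewer libraries, and the cause of the turns was not tested.

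Over all genes, fits that left out a library or number called between 736 and 1668 genes in the LP direction and between 879 and 1746 in the mature direction, the lowest being without replicate 2 of both fractions. Deviations of same-numbered libraries correlated at 0.0618 to 0.148, with 2 of 4 over 0.1, against -0.156 to 0.0779 for other numbers, and 7 of 8 libraries were closest to their own number, which is a hint from the data and not the design. With the replicate block 5 members were higher in mature cells, Dusp5 being added (log2 fold change -1.09, adjusted p = 0.0307), and 1388 and 1639 genes were called higher in LP and in mature cells. Of 39 called genes on the other lists, 24 were past the threshold under every alternative, and of their 775 values under alternatives 77 were not past it and 0 changed sign. Of 640 list counts 579 stayed within 1.5 times. With the longest transcript as length, Dusp1 rose to 34.4 CPM per kb in LP and 102 CPM per kb in mature cells, and 2 pairs of neighbours in the mature order changed places. At 8 to 45 counts of Spry1 in LP libraries and 3 to 124 counts of Spry4, depth limits both.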

Other observations

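The spread between libraries of a fraction differed among the members. Spred2 had a coefficient of variation of 7.55% over the 4 mature libraries and 45.6% over the 4 LP libraries, and Spred1 had 13.7% and 34.8%. Dusp1 and Dusp4 varied less in LP (17.6% and 22.4%) than in mature cells (41.7% and 43.9%), and Dusp10 likewise (41.8% and 92.0%). With 4 libraries a fraction these values were not tested. The summed CPM of the 10 members was 371 to 438 in LP and 466 to 834 in mature libraries, with mature replicate 4 the lowest of the mature libraries and also the lowest of them for Dusp1, Dusp4, Dusp10 and Spry1.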
